A study of Mus musculus with 6 samples.

Results

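The 49 genes described here encode the machinery that copies DNA in S phase: the factors that mark and license replication origins, the replicative helicase, the sliding clamp and its loader, the DNA polymerases, the enzymes that supply nucleotides, the E2F transcription factors with the E cyclins, and factors that restore chromatin behind the fork. They were chosen as a list of gene symbols by their known roles, and each of the 49 had 1 row among the 14868 genes of the deposited table. The libraries came from CD4+ T cells of mice on a C57BL/6J background, either wild type (WT, 3 libraries) or Ikzf4-/- (3 libraries), the latter lacking the gene of the Ikaros-family transcription factor Eos. In both groups naïve cells were grown for 72 h on plates coated with anti-CD3 (5 µg/mL) and anti-CD28 (2 µg/mL), which activate them, with 10 ng/mL IL-4 and 10 µg/mL of an antibody against interferon gamma, which together favour T helper 2 (Th2) differentiation. How the Ikzf4 allele was made, and whether the libraries came from separate mice or cultures, is not given in the sources used here, so p-values measure only the spread between these libraries, which may be technical.

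A naïve T cell rests outside the cell cycle, and stimulation through the T cell receptor and CD28 brings it into rapid division. In G1, the origin recognition complex, Cdc6 and Cdt1 load the MCM2-7 ring onto DNA, and geminin (Gmnn) blocks reloading once S phase has begun. Cyclin E with its kinase then allows Cdc45 and the GINS complex to join the ring, which becomes the active helicase. E2F1, E2F2 and E2F3 bind the promoters of most of these genes, and they are held back by the retinoblastoma protein until cyclin-dependent kinases release them.

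Levels are normalized read counts as deposited, and differences are log2 fold changes of Ikzf4-/- over WT on the log2(value + 1) scale, tested with limma over 14864 genes and called at a Benjamini-Hochberg adjusted p under 0.05. The depth implied by the values was 34701390 to 40604346 reads per library, which could not be checked for Ikzf4-/- replicates 1 and 3. Ikzf4, the check of the labels, was at 756, 499.6 and 483 in WT and at 25.2, 10.5 and 38.2 in Ikzf4-/- libraries. The 6 T cell markers summed to 87751 to 90541 in WT and 87667 to 92003.5 in Ikzf4-/- libraries, with 3 estimates below and 3 above 0 and none called. Of the 5 Th2 markers all were below 0 in Ikzf4-/- cells (median -0.82, log2) and 3 were called lower, Il4, Il13 and Ccr8, which are named here after their values were seen. The Th2 markers summed to 16033 to 17810 in WT and 11885 to 13806 in Ikzf4-/- libraries, and their part in the results below was not tested. Summed values of the 2 B cell markers that could be analysed were 51.1 to 83.6 in WT and 58.6 to 90.4 in Ikzf4-/- libraries, those of the 2 CD8 T cell markers 236 to 423 and 232 to 374, and the only analysed myeloid marker of 6, Itgax, lay between 6.03 and 13.6 throughout. The remaining B cell and myeloid markers were not analysed here. Mitochondrially encoded genes took 1.32% to 1.45% of the WT totals and 1.45% to 1.51% of the Ikzf4-/- totals, and their part in the results below was not tested.

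The promoters show what many of these genes have in common in sequence, which their choice by symbol did not use. RefSeq promoter windows (build GRCm38.p6, 250 bases before to 50 after the start) were found for 40 of the 49 genes, 49 windows in all. Windows were searched on both strands for 4 forms of the E2F motif, whose matches can overlap each other on opposite strands. The first form is TTCCCGC. The second has the letters TTCGCGC. The third has the letters TTGCCGC. The last is TTGGCGC. At least 1 form was in 29 of the 49 windows (59.2%), against 9.6% of all 32851 windows in the table and 16.3% of the 13169 windows of genes tested here. The box CCAAT was in 59.2% of the members' windows and 37.4% of all windows, and the Ikaros-family core TGGGAA in 36.7% and 25.6%. The promoters of 5 genes are printed 5′ to 3′ on the gene's strand, with the E2F letters in capitals: those of E2f2 and E2f3, whose levels lay furthest apart in direction, of Mcm3 and Mcm5, of the helicase ring, with 3 matches each, and of Pold1, whose estimate was among the lowest.
E2f2, chr4:136172024-136172323, plus strand: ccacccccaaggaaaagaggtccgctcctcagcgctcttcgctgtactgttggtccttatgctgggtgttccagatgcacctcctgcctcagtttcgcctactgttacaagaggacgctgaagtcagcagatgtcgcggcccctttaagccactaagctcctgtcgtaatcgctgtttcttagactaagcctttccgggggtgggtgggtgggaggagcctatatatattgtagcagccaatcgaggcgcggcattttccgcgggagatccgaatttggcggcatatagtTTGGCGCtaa
E2f3, chr13:29986014-29986313, minus strand: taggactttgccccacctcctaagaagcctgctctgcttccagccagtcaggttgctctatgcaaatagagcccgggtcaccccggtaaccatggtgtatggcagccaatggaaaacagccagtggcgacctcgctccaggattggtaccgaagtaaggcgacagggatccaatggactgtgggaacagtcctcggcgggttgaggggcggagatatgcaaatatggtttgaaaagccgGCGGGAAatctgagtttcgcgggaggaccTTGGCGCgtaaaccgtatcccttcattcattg
Mcm3, chr1:20820263-20820562, minus strand: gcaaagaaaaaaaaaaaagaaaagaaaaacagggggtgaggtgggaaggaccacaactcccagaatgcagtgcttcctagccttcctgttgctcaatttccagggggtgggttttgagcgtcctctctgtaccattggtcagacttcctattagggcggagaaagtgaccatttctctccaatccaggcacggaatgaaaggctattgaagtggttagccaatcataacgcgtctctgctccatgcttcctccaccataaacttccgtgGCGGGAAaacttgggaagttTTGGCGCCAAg
Mcm5, chr8:75109259-75109558, plus strand: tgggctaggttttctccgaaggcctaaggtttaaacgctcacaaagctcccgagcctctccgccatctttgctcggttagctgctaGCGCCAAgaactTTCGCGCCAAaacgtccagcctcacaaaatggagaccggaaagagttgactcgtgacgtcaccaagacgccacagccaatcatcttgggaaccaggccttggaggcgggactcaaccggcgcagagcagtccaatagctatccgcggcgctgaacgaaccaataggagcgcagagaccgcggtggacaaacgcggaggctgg
Pold1, chr7:44548766-44549065, minus strand: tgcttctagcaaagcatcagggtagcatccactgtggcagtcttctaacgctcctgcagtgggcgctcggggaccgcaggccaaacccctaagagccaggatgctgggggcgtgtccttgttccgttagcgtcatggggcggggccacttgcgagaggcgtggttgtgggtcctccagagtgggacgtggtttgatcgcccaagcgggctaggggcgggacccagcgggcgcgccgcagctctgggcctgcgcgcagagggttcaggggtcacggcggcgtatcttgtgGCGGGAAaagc
E2f2 and E2f3 each have 2 windows in the table, and the window of each that is not printed held no form of the E2F motif. Counting the start site of each RefSeq window as base 1, the match in E2f2 begins at base 41, and those in E2f3 at bases -11 and 19. These starts can differ from the gene models used for lengths. In those models E2f2 starts at 136172394 and Mcm5 at 75109569, both beyond the end of the printed window. The match in Pold1 begins at base 40, those in Mcm3 at bases 20, 40 and 43, and those in Mcm5 further upstream, at bases -164, -152 and -149. A match of letters is a description and not a measured binding site.

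DNA replication genes were expressed at nearly the same level in Ikzf4-/- and WT Th2 cells. Of the 49 genes 1 was called, E2f2, which was lower in Ikzf4-/- cells, against 1.77% of all genes tested (263 of 14864, 178 lower and 85 higher, or 154 lower and 115 higher when libraries were scaled to equal totals). Those called lower were 1.20% of all genes and those called higher 0.572%. The median log2 fold change of the 49 genes was -0.026, against 0.005 over all genes tested. The 95% interval of every one of the 49 fold changes lay within 1.5-fold in either direction, as in 65.6% of all genes tested and in 97.0% of the 6350 genes whose mean level lay in the members' range. The outermost bounds were 0.781-fold for E2f2 and 1.26-fold for E2f3. For 42 of the 49 the interval lay within 1.2-fold. RNA was measured in bulk, so fewer cells in S phase and less RNA per cell cannot be told apart.

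**Figure D1:**
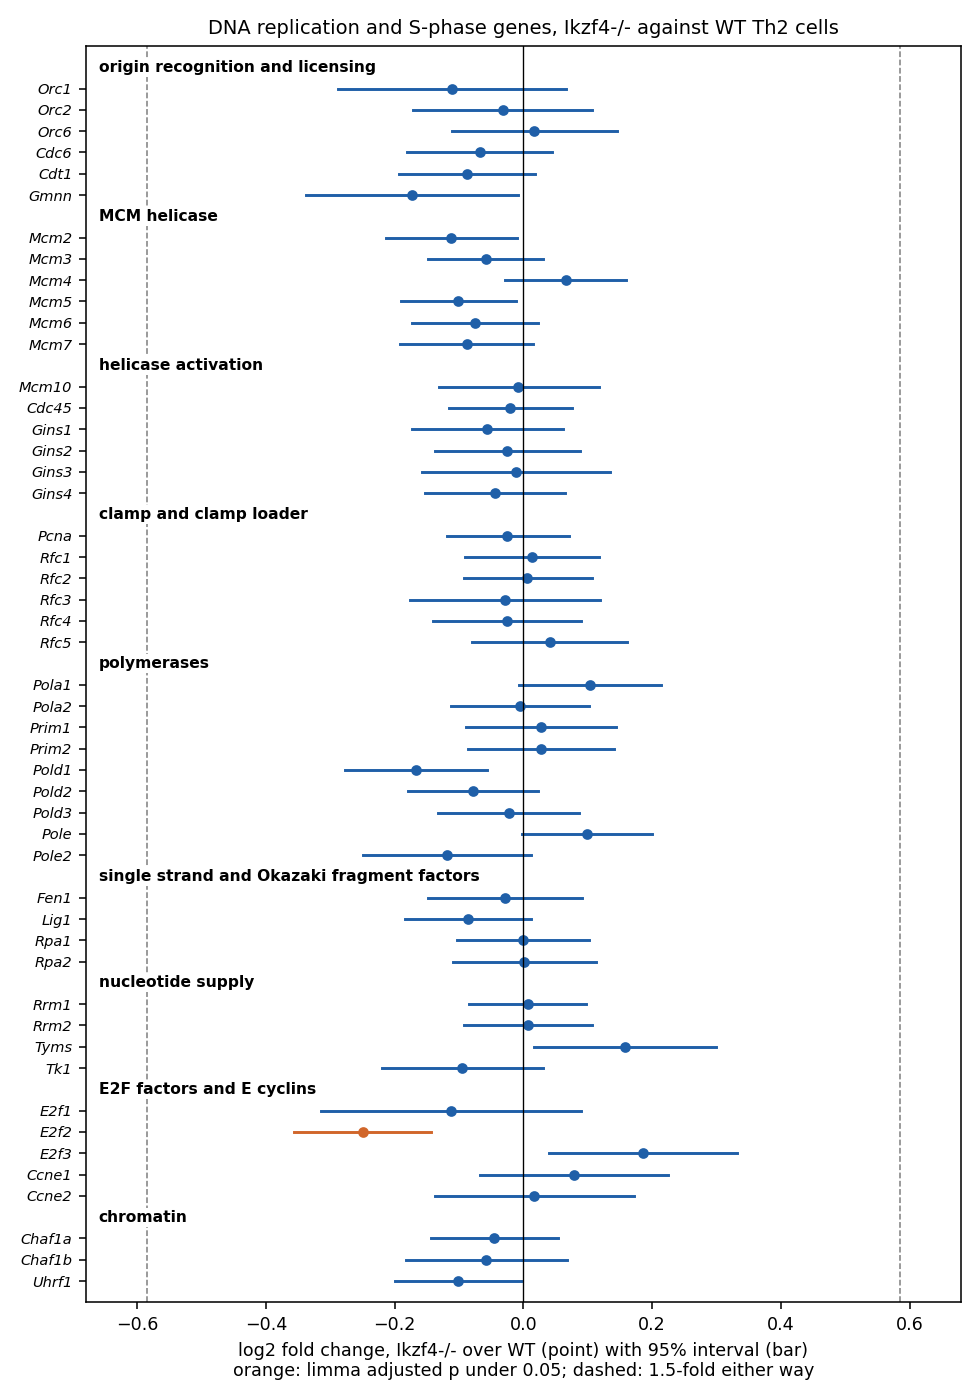
Log2 fold change of Ikzf4-/- over WT for the 49 genes by role (points), with 95% limma intervals (bars) and 1.5-fold changes marked by dashed lines. Every interval lies between the dashed lines, and E2f2 (orange) is the gene called, with an interval from -0.36 to -0.14.

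These genes were highly expressed and varied little between libraries. Their means over the 6 libraries ran from 1004 for Gins3 to 36378 for Pcna, so all 49 passed the filter on low values, a mean of at least 10. The median residual SD between libraries of one genotype was 0.049 on the log2 scale, against 0.119 over all genes tested and 0.067 over genes in the same range of means. Per kilobase of the principal transcript, the median member was at 1745 normalized reads, against 338 for the 12417 genes tested with a coding transcript, and 15 of the 49 were above the 90th percentile.

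Small differences leaned towards lower values in Ikzf4-/- cells, by an amount close to that of the scaling. The fold change was below 0 for 33 of 49 genes (67.3%, against 48.7% of all genes), but for 24 of 49 when libraries were scaled to equal totals, which moved the median over all genes from 0.005 to 0.032. Relative to the median of all genes, the members' median was -0.031 under both scalings. Equal totals shift all fold changes nearly alike, so this relative median could not move between them. With quantile scaling the relative median was -0.027. WT and Ikzf4-/- libraries were fully apart for 14 of the 49 genes, 10 lower and 4 higher, or 28.6% against 23.1% of all genes tested (20.4% against 12.2% lower, 8.2% against 11.0% higher). An unadjusted limma p under 0.05 was reached by 8 genes (16.3%), against 18.1% of all genes. The authors' own comparison, as given in the authors' deposited table, also called E2f2 alone of the 49, against 6.34% of all genes with an adjusted p.

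E2F factors held the called gene and also the largest difference in the opposite direction. E2f2, usually classed with the E2F activators, was at 4708.5, 4697 and 4740.0 in WT and 3904, 3828.5 and 4173 in Ikzf4-/- libraries. Its role in these cells was not tested. Every Ikzf4-/- value of E2f2 lay below every WT value, and the WT values lay very close together. Its WT mean of 4715 ± 22.4 compared with 3969 ± 181 in Ikzf4-/- cells (SD, n = 3 each), so that it decreased by 15.9%. On the log2 scale this was -0.25, with an SE of 0.048 and a limma adjusted p of 0.0343. E2f2 (ENSMUSG00000018983) lies on chromosome 4, 136172394 to 136196057 on the plus strand of GRCm38, and its principal transcript has 7 exons. The call depended on single libraries. It held without WT replicate 1 (limma adjusted p = 0.0369) and without WT replicate 3 (0.0428). It was lost without WT replicate 2 (0.0851) and without Ikzf4-/- replicates 1 (0.0974), 2 (0.123) and 3 (0.0771). Genes called over all tested also fell in the refits that lost it, from 263 to 75, 48, 112 and 20 in that order. The E2f2 estimate stayed between -0.286 and -0.224 (log2) when any library was left out. The call was also lost with equal library totals (0.0507). The authors' deposited table lists E2f2 at -0.25 (log2) and an adjusted p of 0.00163.

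E2f3, the other E2F member with separate groups, was at 1828, 1948 and 2118 in WT and 2356.5, 2154.5 and 2185 in Ikzf4-/- libraries. Every Ikzf4-/- value was above every WT value, but WT replicate 3 and Ikzf4-/- replicate 2 were close. The log2 fold change of 0.19 was not called (95% interval 0.039 to 0.33, limma adjusted p = 0.172). E2f1 was at 2251.5, 1945 and 1692 in WT and 1744, 1764 and 1904 in Ikzf4-/- libraries, where the WT spread covered all Ikzf4-/- values (log2 fold change -0.11, limma adjusted p = 0.565).

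The balance of E2f2 to E2f3 within each library does not depend on scaling between libraries. The ratio of their normalized read counts was 2.58, 2.41 and 2.24 in WT and 1.66, 1.78 and 1.91 in Ikzf4-/- libraries. Means were 2.41 ± 0.169 and 1.78 ± 0.127 (SD, n = 3 each). The two-sided exact permutation p was 0.1, the smallest that 3 against 3 libraries allow, and 0.3 after Benjamini-Hochberg adjustment over the 9 ratios computed. Every E2f2 value was lower and every E2f3 value higher in Ikzf4-/- libraries, so the ratio had to separate the genotypes. This p therefore adds nothing to the results of the single genes. These ratios were chosen with the genes' values known. Per kilobase, WT levels were 995 ± 4.73 for E2f2, 718 ± 103 for E2f1 and 427 ± 31.7 for E2f3 (SD, n = 3), and the order was the same in Ikzf4-/- cells, at 837, 660.3 and 485.5. The ranges of E2f2 and E2f1 over the 6 libraries overlapped slightly, and E2f3 lay below both.

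The E cyclins, partners of the kinase Cdk2 at entry into S phase, overlapped between genotypes. Ccne1 was at 2571, 2798 and 3022 in WT and 2791, 2988 and 3067 in Ikzf4-/- libraries (log2 fold change 0.078, 95% interval -0.068 to 0.22). Ccne2 was at 1937.5, 2064 and 2139 in WT and 1884, 2116 and 2222 in Ikzf4-/- libraries (0.017, -0.14 to 0.17). Both intervals held 0.

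**Figure D2:**
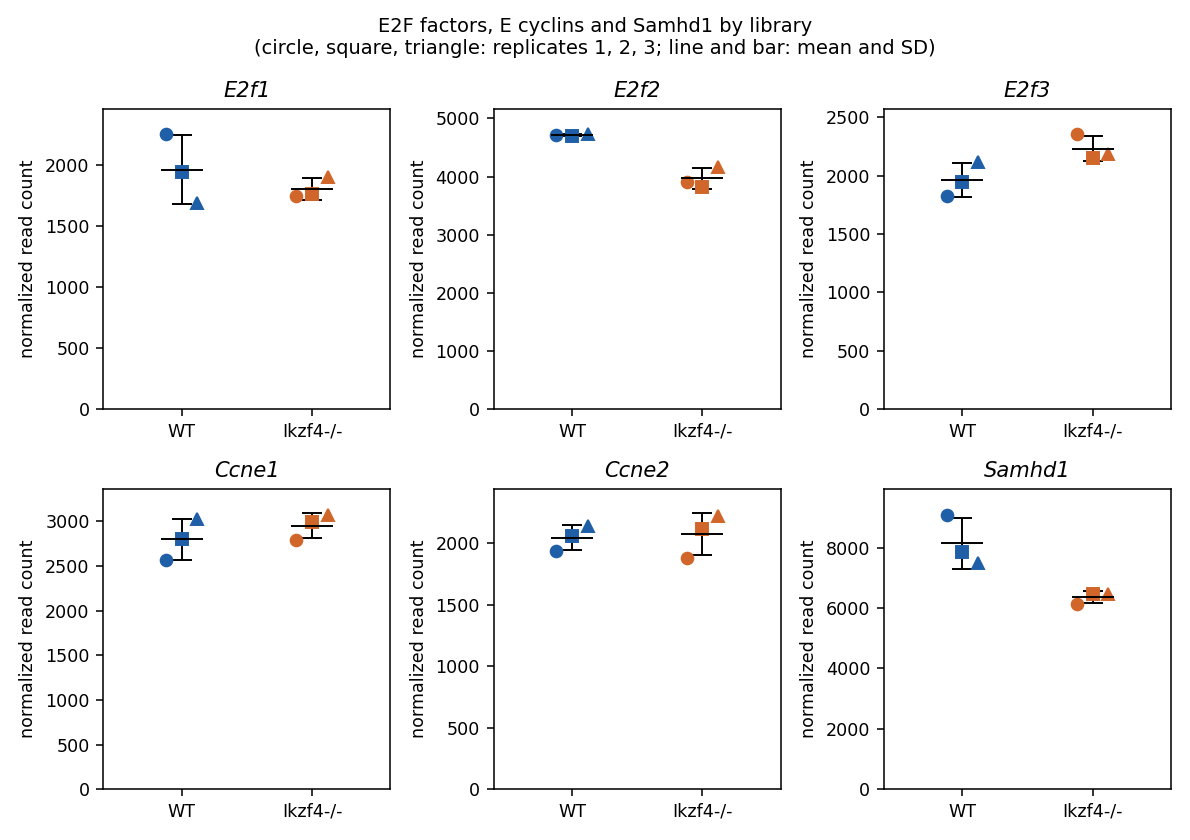
Normalized read count of 5 members and of Samhd1 in each library (symbols, by replicate), with mean and SD of 3 libraries per genotype. E2f2 and Samhd1 are lower and E2f3 is higher in every Ikzf4-/- library than in any WT library, while E2f1 and both E cyclins overlap.

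None of the 6 origin licensing genes was called. Their median difference was -0.078 (log2), and 5 of them were below 0 under the deposited, quantile and equal-total scalings. Without WT replicate 1 the median was -0.049 and 4 of 6 were below 0, and without Ikzf4-/- replicate 2 it was also 4 of 6. Gmnn, the inhibitor of licensing, was at 4987, 4277 and 4031.5 in WT and 4015, 4043 and 3696 in Ikzf4-/- libraries. WT replicate 1 stood high and the groups overlapped (log2 fold change -0.17, 95% interval -0.34 to -0.008, limma adjusted p = 0.253). Cdt1, which geminin binds, was at 4065.5, 3941 and 3881 in WT and 3876, 3635 and 3678 in Ikzf4-/- libraries, groups that were apart by a narrow gap (-0.088, limma adjusted p = 0.37). The ratio of Cdt1 to Gmnn was 0.9 ± 0.0761 in WT and 0.953 ± 0.0492 in Ikzf4-/- cells (SD, n = 3 each; exact permutation p = 0.4). Cdc6, which loads the ring together with Cdt1, had a log2 fold change of -0.068, and the origin recognition subunits Orc1, Orc2 and Orc6 of -0.11, -0.032 and 0.017.

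The MCM genes encode the 6 subunits of the helicase ring, which assemble in equal number. Their summed normalized read count was 103559 to 106263 in WT and 98404 to 101372 in Ikzf4-/- libraries, so the genotypes did not overlap for the sum. Fold changes were below 0 for 5 of 6, under equal library totals as well, and none was called. Their median was -0.082, and -0.052 without WT replicate 1. Mcm5 was at 21827, 21962 and 22496 in WT and 20207, 21084 and 20510.3 in Ikzf4-/- libraries, without overlap (log2 fold change -0.101, SE 0.041, limma adjusted p = 0.22). Mcm2 was at 15559, 15393 and 16111 in WT and 13776, 14956 and 14843 in Ikzf4-/- libraries, also without overlap (-0.11, SE 0.046, 0.236). Mcm3 and Mcm6 were likewise apart, at -0.059 and -0.076, and Mcm7, at -0.088, overlapped. Mcm4 went the opposite way, from 11363, 11574 and 10811 in WT to 11851, 11700.3 and 11763 in Ikzf4-/- libraries (0.066, 95% interval -0.028 to 0.16, limma adjusted p = 0.462). The largest of these differences, that of Mcm2, was -7.5% of the WT level, with an interval of -0.21 to -0.010 (log2).

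Per kilobase of principal transcript, the order of the 6 MCM genes was Mcm3, Mcm5, Mcm6, Mcm7, Mcm2, Mcm4 in both genotypes. WT levels were 6856 ± 78.9, 6535 ± 105, 6383.5 ± 283, 5467 ± 252, 4654 ± 112 and 3134 ± 110 (SD, n = 3 each). The ranges of Mcm5 and Mcm6 over the 6 libraries overlapped, as did those of Mcm3 and both of these, while Mcm7, Mcm2 and Mcm4 were apart from their neighbours. Mcm3 was 2.10 times Mcm4, while no genotype difference among the 6 genes reached 1.2-fold. With the union of all coding exons as the length, Mcm3 and Mcm4 remained highest and lowest, but Mcm6 and Mcm7, whose union lengths are greater, were at 4136 and 4264 per kilobase as means over 6 libraries, below Mcm2 at 4481.

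Genes that turn the loaded ring into a helicase had fold changes close to 0. Cdc45, Mcm10 and the 4 GINS genes lay between -0.057 and -0.008, below 0 for 6 of 6, but for 2 of 6 with equal library totals and for 4 of 6 without WT replicate 2 or Ikzf4-/- replicate 2, and none was called. Gins1 was apart between genotypes, at 1736, 1700.0 and 1791 in WT and 1667.5, 1681 and 1676 in Ikzf4-/- libraries. Levels of the GINS genes, whose products form a complex of 4 different subunits, ran from 398 per kilobase for Gins3 to 1964 for Gins4, a ratio of 4.93, so subunits with equal numbers in the complex had unequal RNA levels.

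**Figure D3:**
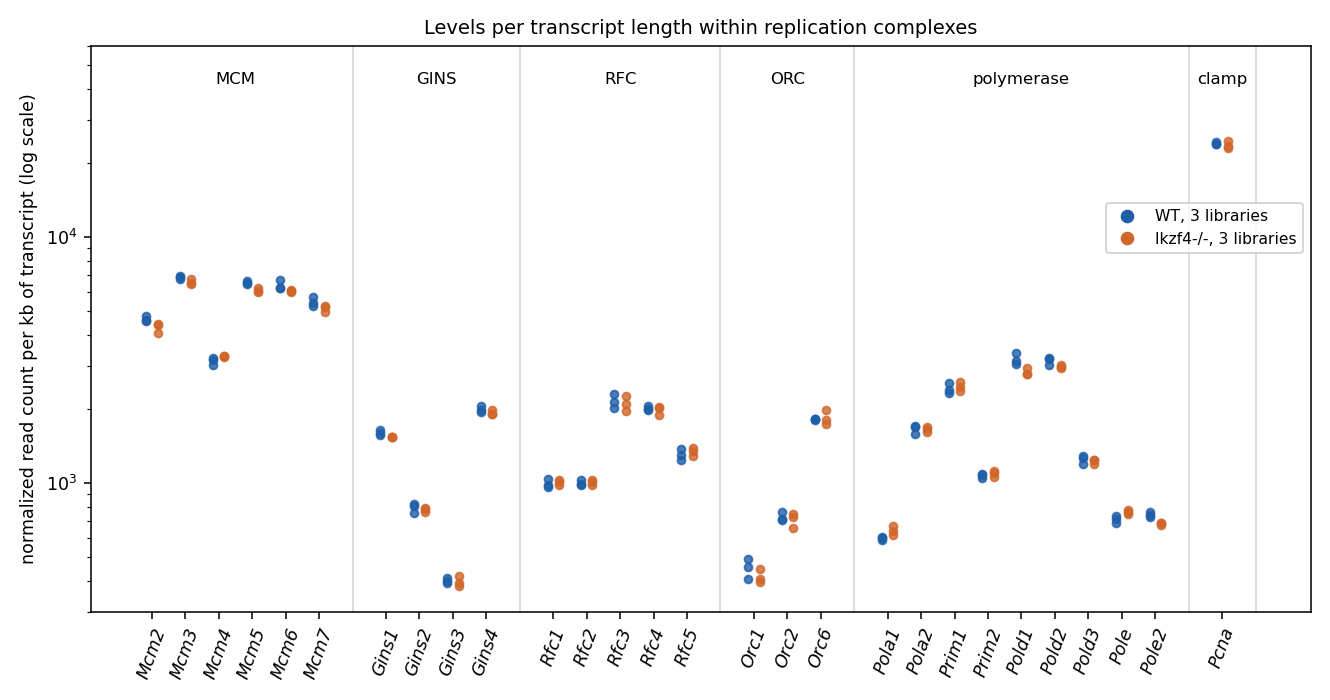
Normalized read count per kilobase of principal transcript (log axis) for the MCM, GINS, clamp loader (RFC), origin recognition (ORC) and polymerase genes and Pcna, 3 WT (blue) and 3 Ikzf4-/- (orange) libraries each. Genotypes lie close together within each gene, while subunits of one complex differ by up to 4.93-fold (Gins4 over Gins3), and Pcna stands highest at 23067 to 24624.

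Pcna, the clamp that holds polymerases on DNA, was the most abundant member. It was at 36500.0, 36413 and 37133.5 in WT and 35016, 37379.9 and 35825 in Ikzf4-/- libraries, with both the highest and the lowest value in Ikzf4-/- cells (log2 fold change -0.025, 95% interval -0.12 to 0.070). A pseudogene, Pcna-ps2, also has a row, and how reads shared with it were counted is not stated. The clamp loader genes Rfc1 to Rfc5 overlapped between genotypes, with fold changes from -0.029 to 0.041, which were above 0 for 3 of the 5. With equal library totals 1 of the 6 genes of clamp and loader was below 0, as without Ikzf4-/- replicate 3, against 3 as deposited, and none was called.

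Polymerase genes went in both directions, 5 of 9 below 0 as deposited and 3 of 9 with equal library totals, and none was called. Pold1, the catalytic subunit of polymerase delta, which copies the lagging strand, was at 11635.5, 10488 and 10818 in WT and 9629.9, 9553 and 10133 in Ikzf4-/- libraries. All Ikzf4-/- values lay below all WT values (log2 fold change -0.17, 95% interval -0.28 to -0.057), but the limma adjusted p was 0.114, and 0.0562 in the authors' deposited table, so it was not called. Its partners Pold2 and Pold3 were at -0.079 and -0.023. Pole, the catalytic subunit of polymerase epsilon, which copies the leading strand, was at 5124, 5255 and 4909.8 in WT and 5455.5, 5349.7 and 5561 in Ikzf4-/- libraries, apart and higher (0.099, limma adjusted p = 0.288). Its accessory subunit Pole2 was apart and lower, at 1299.8, 1241 and 1264 in WT and 1177, 1178 and 1147 in Ikzf4-/- libraries (-0.12, limma adjusted p = 0.317). Exons of Pole2 share 245 bases with Gm49384, a protein-coding gene on the same strand, and how reads shared with it were counted is not stated. The ratio of Pole to Pole2 was 4.02 ± 0.187 in WT and 4.67 ± 0.156 in Ikzf4-/- cells (SD, n = 3 each, exact permutation p = 0.1, adjusted 0.3 over 9 ratios). That p was fixed in advance, because Pole and Pole2 were each apart between genotypes, in opposite directions. In the primase complex, which starts each new strand, Pola1 was apart and higher (0.103, limma adjusted p = 0.311) while Pola2, Prim1 and Prim2 overlapped, between -0.005 and 0.027.

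The remaining fork factors differed little and none was called. An exon of 15 of the 49 genes, among them Fen1, Chaf1a, Gins2 and Orc2, overlaps a gene on the opposite strand, and no source used here says whether reads were counted by strand, which leaves their values uncertain. Rpa1 and Rpa2, which coat single-stranded DNA, had log2 fold changes of 0.00 and 0.001, with intervals from -0.10 to 0.102 and from -0.11 to 0.11. Fen1, which trims the flaps of Okazaki fragments, and Lig1, which joins the fragments, were at -0.029 and -0.086, and both overlapped. The histone chaperone subunits Chaf1a and Chaf1b, which place histones on new DNA, were at -0.046 and -0.058. Uhrf1, which reads half-methylated CpG sites and recruits the maintenance methyltransferase, was at 15074, 14441 and 13959 in WT and 13741, 13208 and 13541 in Ikzf4-/- libraries, apart and lower (-0.102, limma adjusted p = 0.255).

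Enzymes of nucleotide supply had estimates in both directions, with 1 of 4 below 0 under all 3 scalings and 1 or 2 of 4 when single libraries were left out, and none was called. Rrm1 and Rrm2, the subunits of ribonucleotide reductase, both had a log2 fold change of 0.007, with intervals from -0.084 to 0.097 and from -0.092 to 0.106, and their ratio was 1.6 in both genotypes. Tyms, which makes thymidylate from deoxyuridylate, was at 3623, 4019 and 4346 in WT and 4538.5, 4463 and 4338 in Ikzf4-/- libraries (0.16, limma adjusted p = 0.225). Ikzf4-/- replicate 3 was just below WT replicate 3. Tk1, the salvage enzyme of thymidine, was at 5532, 5093 and 5827 in WT and 5247, 5223 and 4919 in Ikzf4-/- libraries (-0.095, limma adjusted p = 0.421). The ratio of Tyms to Tk1 was 0.655, 0.789 and 0.746 in WT and 0.865, 0.854 and 0.882 in Ikzf4-/- libraries, without overlap (exact permutation p = 0.1, adjusted 0.3 over 9 ratios).

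Among 73 further replication genes, listed as partners of the fork, nucleotide enzymes, G1-S regulators and chromatin factors, 1 was called, against 1.77% of all genes tested. Their median log2 fold change was 0.005, with 36 below and 37 above 0. The called gene was Samhd1, whose product degrades deoxynucleotides and so opposes ribonucleotide reductase. It was at 9072, 7864 and 7481 in WT and 6124, 6480.4 and 6456 in Ikzf4-/- libraries, without overlap. Samhd1 fell, with a WT mean of 8139 ± 831 and an Ikzf4-/- mean of 6353.5 ± 199 (SD, n = 3 each). The difference was -0.35 on the log2 scale, with an SE of 0.067 and a limma adjusted p of 0.0319. The call was lost without WT replicate 2 (0.0642) and without Ikzf4-/- replicates 1 (0.0974), 2 (0.0816) and 3 (0.105). The 2 largest differences of each list are given here, and apart from Samhd1 none was called. Among fork partners they were -0.178 for Donson and 0.178 for Ticrr, both needed to start replication forks. After Samhd1, the nucleotide enzyme furthest from 0 was Nme2, a nucleoside diphosphate kinase, at 0.16. Among G1-S regulators they were -0.17 for Lin54 and -0.152 for Mybl2, DNA-binding regulators of cell cycle genes. E2f7 lay as far above 0 as Mybl2 below it, at 0.152. Among chromatin factors they were 0.069 for Asf1a and 0.037 for Rbbp7, both of which bind histones. Of 20 mitosis genes, 0 were called by limma, 1 had an unadjusted p under 0.05 and the authors' deposited table called 0, with a median of -0.020. Those furthest from 0 were Aurkb, a mitotic kinase, at -0.17 (limma adjusted p = 0.114) and Top2a, which untangles DNA, at -0.095.

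The members' medians differed between the WT libraries, mainly through WT replicate 1. The median member lay 0.042 above its mean over the 6 libraries (log2) in WT replicate 1, 0.005 and 0.009 above in WT replicates 2 and 3, and at -0.009, -0.020 and -0.029 in Ikzf4-/- replicates 1 to 3. Every WT median was thus above every Ikzf4-/- median, and WT replicate 1 stood furthest from 0. It held the highest value of 21 of the 49 genes, and Ikzf4-/- replicate 3 held the lowest of 13. Without WT replicate 1, the members' median log2 fold change was -0.021 and E2f2 remained the gene called. Together the 49 genes took 0.941% to 0.949% of the WT totals and 0.931% to 0.937% of the Ikzf4-/- totals.

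**Figure D4:**
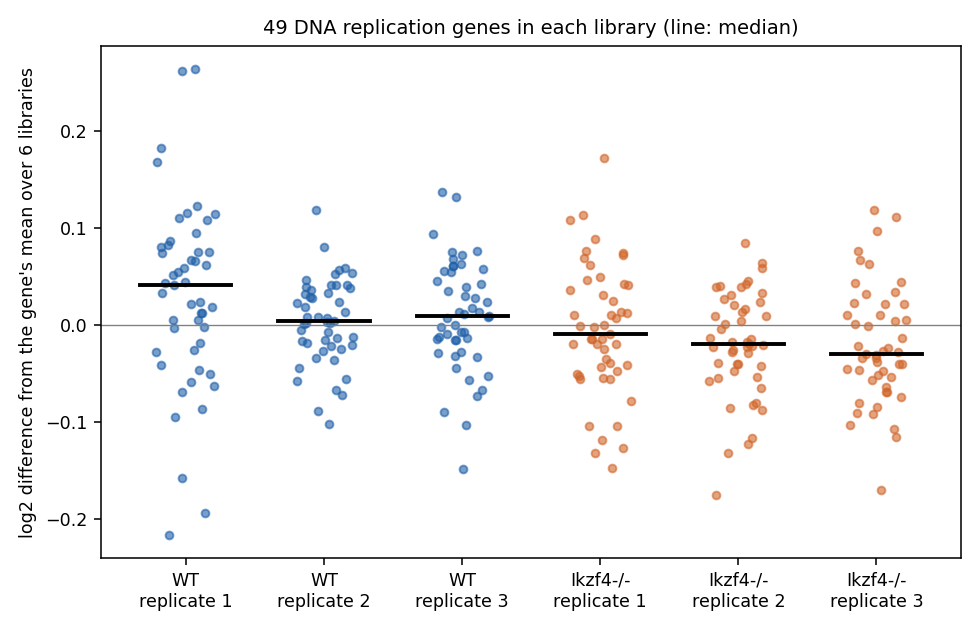
Difference of each of the 49 genes from its own mean over the 6 libraries (points, log2 scale) with the median in each library (line). The medians run from 0.042 in WT replicate 1 to -0.029 in Ikzf4-/- replicate 3, within a spread of single genes from -0.216 to 0.264.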

How the data were processed

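Total RNA from 3 WT and 3 Ikzf4-/- samples was sequenced. The submitters' processing notes name Trimmomatic 0.36, STAR 2.5.2b, DESeq2 and build GRCm38, without their roles. How reads were assigned to genes is not given in the sources used here. The sample columns hold a signal that is never negative, normalized read counts as deposited by the authors, and all values were whole multiples of 1 step per library (within 0.1 of a read). The authors' log2 fold changes, p-values and adjusted p-values are in the same deposited table.

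The values were transformed to log2(value + 1). Genes averaging 10 or more were kept, and limma 3.58.1 (R 4.3.3) fitted genotype alone with a variance trend, a procedure tested on simulated data. P-values are two-sided and intervals are 95%. Lengths are of the principal coding transcript (GENCODE M21, GRCm38), with the union of coding exons as a check. Any of the 49 members could be named. Other genes were named where called or among the 2 with the largest difference in their list. E2f7 was added as a tie after rounding. Members, lists and ratios were chosen with earlier results of these data known. Alternatives were other pseudocounts, filters and scalings, the replicate number as a block, array weights, leaving out each library, a threshold of 0.1 and the authors' calls.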

Additional observations from a re-analysis of the deposited data

How the results depend on the processing

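All 49 intervals lay within 1.5-fold under each of the 14 refits. Under other pseudocounts and filters and quantile scaling, E2f2 was the gene called. Equal library totals gave 0 members called (6 had an unadjusted p under 0.05; the authors' deposited table called 1) and a members' median of 0.0012. The count of genes called was 482 with array weights, 815 in the authors' deposited table and 753 at an adjusted p under 0.1, with 1 member in each. Leaving out each library gave 20 genes called (without Ikzf4-/- replicate 3) to 523 (without WT replicate 3), 0 to 1 members called (3 to 8 with an unadjusted p under 0.05 where limma called 0) and a members' median of -0.036 to -0.021. The replicate block gave 754 genes and 1 member, E2f2 (limma adjusted p = 0.0198). Deviations of same-numbered libraries correlated at 0.145, 0.0122 and 0.142 across genes, and those of differently numbered libraries at -0.163 to 0.0491. Whether the numbers mark pairs is not given in the sources used here, and the main fit did not use them. Among values of single genes under alternatives, 754 stayed on the same side of the threshold, most of them of genes that were not called, and 9 lost a call, 5 of E2f2 and 4 of Samhd1. Count tests with edgeR and DESeq2, planned on whole reads recovered from the values, were not run, because the steps of Ikzf4-/- replicates 1 and 3 lie too close to 1 for recovery to be checked. Why the counts moved was not tested.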
